A study of Mus musculus with 6 samples.

Results

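The genes described here are 9 inhibitors of NF-κB signaling, taken by symbol from the 17866 protein-coding genes of the deposited table: the IκB genes Nfkbia, Nfkbib, Nfkbie, Nfkbiz and Nfkbid, and the ubiquitin-editing genes Tnfaip3, Tnip1, Tnip2 and Cyld. The rule that names them uses no measured value, but the genes were chosen with earlier results of these data known. They were measured by bulk RNA-seq in the corneal epithelium of 6-month-old mice labelled C57BL/6, with 3 libraries labelled WT and 3 labelled Rela-/- (KO below), each from a separate biological sample. In the study the KO mice were Krt14-Cre; Rela f/f, so that Rela was deleted in K14-expressing epithelial cells and their descendants, and other cells kept the gene. The label WT does not say whether the control mice carried the floxed allele or the Cre.

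NF-κB dimers are held inactive in the cytoplasm by the classical IκB proteins, IκBα (Nfkbia), IκBβ (Nfkbib) and IκBε (Nfkbie). The IκB kinase phosphorylates these proteins and the β-TrCP ubiquitin ligase then marks them for degradation, which frees dimers such as those of RelA. NF-κB switches on several of its own inhibitors, so that signaling limits itself. The nuclear IκB proteins IκBζ (Nfkbiz) and IκBNS (Nfkbid) instead meet NF-κB at DNA, where they raise or lower the transcription of selected genes. A20 (Tnfaip3), its binding partners ABIN1 (Tnip1) and ABIN2 (Tnip2), and the deubiquitinase CYLD act further upstream and dampen the ubiquitin signals that activate the kinase.

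Library totals lay between 20158404 and 20880347 estimated counts, and 3 counts, the floor used here for detection, were worth 0.137 to 0.152 CPM, a count relative to its library total after TMM scaling. This floor allows for counting error only. Rela itself was counted 1871, 1844 and 1855 times in WT, against 318, 223 and 313 times in KO. The 6 corneal marker genes on the list used here, among them Krt12 and Pax6, were all lower in KO, and their summed level went from between 68054 and 68880 CPM to between 11587 and 14327 CPM. All 6 epidermal markers were higher, from sums of 20.5 to 26.2 CPM in WT to sums of 12296 to 25244 CPM in KO. In such bulk samples fewer cells of a type and less RNA per cell cannot be told apart.

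The classical IκB genes Nfkbia and Nfkbie and the nuclear IκB gene Nfkbid rose in KO, by 1.55-fold, 1.71-fold and 2.24-fold. The nuclear IκB gene Nfkbiz and the ubiquitin-editing genes Tnfaip3, Tnip1 and Cyld fell, to 75.7%, 52.1%, 66.7% and 54.9% of the WT level. Nfkbib and Tnip2 did not pass the test. All 9 genes passed the filter on low counts. At an adjusted p of 0.05 (edgeR quasi-likelihood test, Benjamini-Hochberg adjustment over 13305 genes) 7 of the 9 were called, or 77.8%, beside 62.0% of all genes tested. In the upward direction 3 of 9 were called beside 31.8% of all genes, and in the downward direction 4 of 9 beside 30.2%. Without WT replicate 2, WT replicate 3, KO replicate 1 or KO replicate 2 only 4 of the 9 (44.4%) were called, 2 in each direction, beside between 56.2% and 60.3% of all genes. Without WT replicate 1 or KO replicate 3 the call was made for 5 of 9 (55.6%), beside 53.5% and 55.3% of all genes. An adjusted p of 0.001 or less together with a change of at least 2-fold was reached by 0 of the 9 and by 19.8% of all genes. The groups did not overlap for 6 of the 9 genes, beside 68.6% of all genes, and these were 3 with higher KO values (34.7% of all genes) and 3 with lower KO values (33.9%). The median log2 fold change was 0.12 over the 9 genes and 0.01 over all genes tested.

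**Figure D1:**
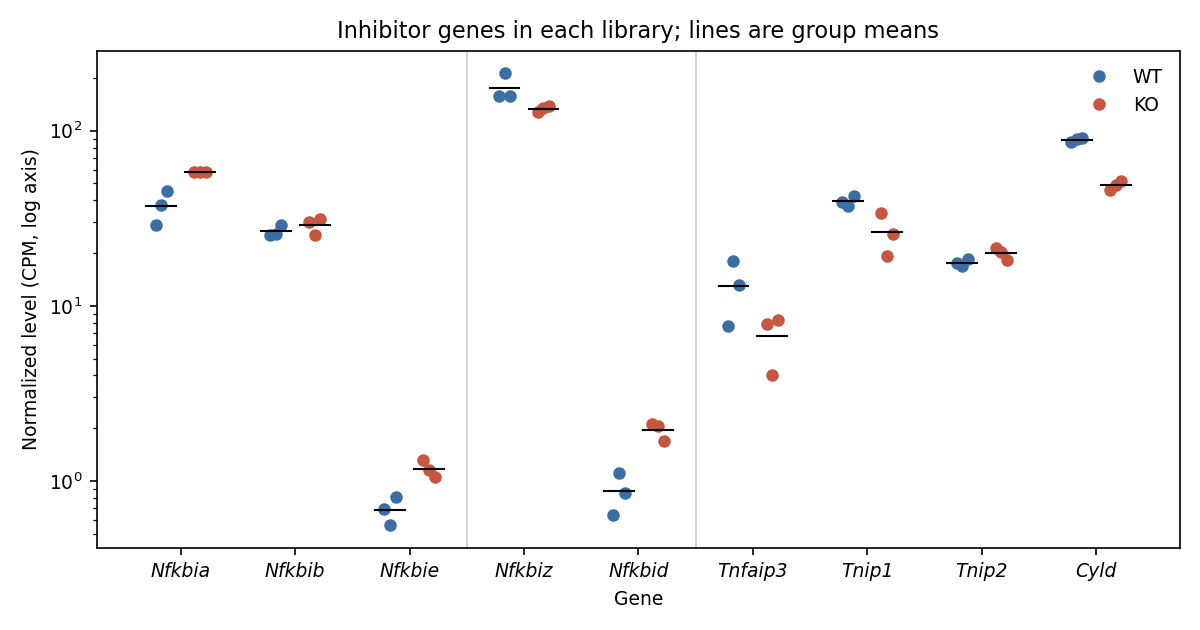
Normalized level of each inhibitor gene in CPM on a log axis, with 1 point per library, blue for the 3 WT and red for the 3 KO libraries, and a line at each group mean. Nfkbia, Nfkbie and Nfkbid sat higher in all KO libraries, Nfkbiz, Tnip1 and Cyld lower, and the groups overlapped for Nfkbib, Tnfaip3 and Tnip2.

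Because several inhibitors are known NF-κB targets, their promoters are shown for the κB motif, the DNA element that NF-κB dimers bind. RefSeq promoter windows of 300 bases (GRCm38.p6, from 250 bases before to 50 after a start site) were present for 8 of the 9 genes, in 11 windows. Nfkbiz has no entry. The κB motif was searched on both strands. It was found in at least 1 window of 6 of the 8 genes, beside 5.14% of the 27025 genes with a window, and in 6 of the 11 windows beside 4.51% of all 32851. Among the 10572 genes with a window that were tested for expression, the share with a match was 6.22%. The stretches that hold the matches are printed 5′ to 3′ on the strand of the gene, with the matched bases in capitals.
Nfkbia (chr12:55492647-55492696, minus strand): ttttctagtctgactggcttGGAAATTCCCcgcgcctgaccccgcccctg
Nfkbie (chr17:45555574-45555623, plus strand): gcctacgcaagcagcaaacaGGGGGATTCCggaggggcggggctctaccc
Nfkbid (chr7:30422160-30422254, plus strand): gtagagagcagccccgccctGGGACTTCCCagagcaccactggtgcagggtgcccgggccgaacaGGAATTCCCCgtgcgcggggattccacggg
Tnfaip3 (chr10:19015393-19015555, minus strand): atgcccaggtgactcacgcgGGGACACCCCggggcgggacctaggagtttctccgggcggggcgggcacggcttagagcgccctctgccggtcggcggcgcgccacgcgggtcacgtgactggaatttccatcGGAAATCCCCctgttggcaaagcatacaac
Tnip1 (chr11:54962967-54963018, minus strand): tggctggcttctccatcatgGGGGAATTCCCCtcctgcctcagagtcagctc
Cyld (chr8:88696853-88696902, plus strand): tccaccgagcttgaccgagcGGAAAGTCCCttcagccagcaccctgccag

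The match in Nfkbia began 29 bases before the start site, and that in Cyld 155 bases before it. Tnfaip3 had a match 125 bases and another 12 bases before its upstream start site, and none in its other window. In Nfkbid the matches lay 226 and 181 bases before the second of its 3 start sites. The capitals of Tnip1 hold 4 overlapping matches, because the stretch reads the same on both strands, and they began between 58 and 56 bases before the start site. Unlike for the other windows, the bases checked after this start site were found in no GENCODE transcript of the gene. The distances from it are therefore less secure. Nfkbie had a single match 106 bases before its start. Under 2 narrower words, GGGANTTTCC and GGGANTTCCC, matches were found in 4 of the 8 genes (Nfkbia, Nfkbid, Tnip1 and Cyld). The share was 0.873% of all genes with a window and 1.05% of those tested for expression. The windows of Nfkbib and Tnip2, the 2 genes that did not pass the expression test, held no match of either form. Genes with a match thus included 3 that rose and 3 that fell. Over all tested genes with a window, 65.0% of the 658 with a match and 62.0% of the 9914 without one differed between genotypes, with 210 higher and 218 lower among those with a match. A match is a description of the letters in a window, and neither binding nor a link of matches to the expression calls was tested.

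**Figure D2:**
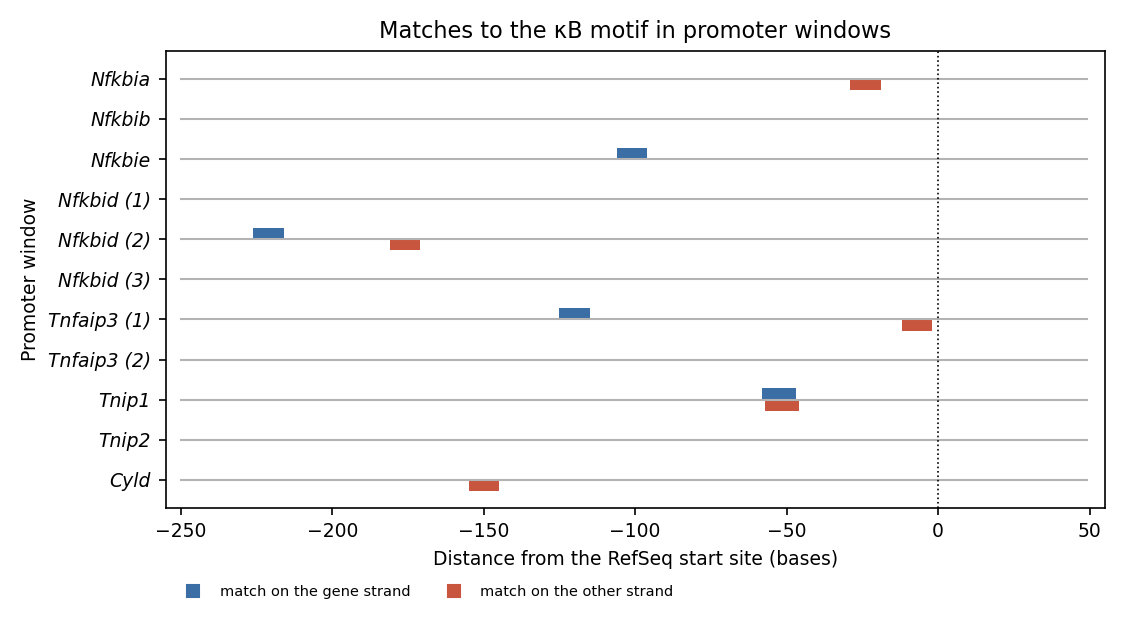
Position of the κB motif matches in the 11 promoter windows, in bases from the RefSeq start site (dotted line), blue on the strand of the gene and red on the other strand. Nfkbia, Nfkbie, Nfkbid, Tnfaip3, Tnip1 and Cyld hold matches, all before the start site of the window that holds them. The windows of Nfkbib and Tnip2 hold none.

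Nfkbia (gene 18035, GRCm38 chromosome 12, positions 55489409 to 55492647) encodes IκBα, the inhibitor that NF-κB resynthesizes fastest after its degradation. It was counted 631, 810 and 961 times in WT, against 1144, 1155 and 1163 times in KO. Every KO library was above every WT library, and the KO libraries were almost equal. The mean level was 37.4 CPM with an SD of 8.30 in WT, against 57.9 CPM with an SD of 0.00815 in KO (n = 3 each). Counting error alone is larger than this KO spread, which is therefore no measure of precision. The test gave 0.63 on the log2 scale (SE 0.152, adjusted p = 0.00653, edgeR), and the call was made in all 17 alternative fits, with log2 fold changes from 0.47 to 0.81.

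Nfkbib (gene 18036, chromosome 7, positions 28758251 to 28766644) encodes IκBβ, which is degraded more slowly than IκBα. Its WT libraries held 551, 552 and 610 counts and its KO libraries 593, 506 and 625 estimated counts. The groups overlapped. The log2 fold change of 0.12 had a 95% confidence interval from -0.14 to 0.38 (adjusted p = 0.397, edgeR), so that both a rise to 1.30 times and a fall to 0.905 times the WT level lay within it. With an offset for gene length the sign turned, to -0.12.

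Nfkbie (gene 18037, chromosome 17, positions 45555684 to 45567669), the gene of IκBε, was at a low level. It was counted 15, 12 and 17 times in WT, against 26, 23 and 21 times in KO. Although the groups did not overlap, the highest WT and lowest KO libraries were 4 counts apart. edgeR gave 0.77 on the log2 scale (SE 0.288, adjusted p = 0.0437). Of 16 alternative fits 10 did not make the call, among them each of the 6 that left out a library, whose adjusted p lay between 0.0594 and 0.146, and DESeq2 (adjusted p = 0.142).

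Nfkbiz (gene 80859, chromosome 16, positions 55811279 to 55839074) encodes IκBζ, an inducible nuclear protein that epithelial cells use to switch on antimicrobial and inflammatory genes. It was counted 3431, 4568 and 3352 times in WT, against 2533, 2670 and 2763 times in KO. All KO libraries were lower, and WT replicate 2 stood above the other WT libraries. Scaled levels averaged 176 ± 31.5 CPM for WT against 133 ± 4.73 CPM for KO (± SD, n = 3 each), with edgeR giving -0.40 on the log2 scale (SE 0.128, adjusted p = 0.0238). Without WT replicate 2 the log2 fold change was -0.24 and the adjusted p 0.0724 in edgeR. The call was also lost without KO replicate 1 (-0.37, adjusted p = 0.0613), without KO replicate 2 (-0.41, adjusted p = 0.0530) and with the offset for gene length (-0.25, adjusted p = 0.124).

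Nfkbid (gene 243910, chromosome 7, positions 30417717 to 30428748) encodes IκBNS, best known from lymphocytes and myeloid cells. It was counted 14, 24 and 18 times in WT, against 42, 41 and 34 times in KO. The KO libraries were all higher, at a level near 2 CPM. This was the largest rise among the 9 genes, at 1.17 on the log2 scale (SE 0.288, adjusted p = 0.00748, edgeR). The call was made in all 16 alternative fits that tested the gene.

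Tnfaip3 (gene 21929, chromosome 10, positions 19000910 to 19015410) encodes A20, an enzyme with ubiquitin ligase and deubiquitinase activity that NF-κB induces. It was counted 168, 386 and 277 times in WT, against 155, 80 and 167 times in KO. WT replicate 1 lay within the range of the KO libraries once scaled, at 7.70 CPM beside 7.85, 4.01 and 8.32 CPM, so the groups overlapped. edgeR gave -0.94 on the log2 scale (SE 0.347, adjusted p = 0.0424). Of 17 alternative fits 7 did not make the call, among them those without WT replicate 2 (-0.62, adjusted p = 0.141), WT replicate 3 (-0.92, adjusted p = 0.0903), KO replicate 1 (-1.06, adjusted p = 0.0642) and KO replicate 2 (-0.68, adjusted p = 0.114). It was also lost with the replicate number as a block (-0.91, adjusted p = 0.0843).

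Tnip1 (gene 57783, chromosome 11, positions 54910486 to 54963176) encodes ABIN1, which brings A20 to ubiquitin chains. It was counted 851, 795 and 895 times in WT, against 670, 382 and 518 times in KO. The KO libraries were all lower and differed more among themselves than the WT libraries did. Scaled levels averaged 39.4 ± 2.73 CPM for WT against 26.3 ± 7.40 CPM for KO (± SD, n = 3 each), with edgeR giving -0.58 on the log2 scale (SE 0.187, adjusted p = 0.0240). The call was lost without WT replicate 1 (-0.59, adjusted p = 0.0595), without WT replicate 3 (-0.52, adjusted p = 0.0770) and without KO replicate 3 (-0.57, adjusted p = 0.0630). The deposited table places Tnip1 on the plus strand and RefSeq on the minus strand, and the strand used in counting is not given in the sources used here.

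Tnip2 (gene 231130, chromosome 5, positions 34496096 to 34513979) encodes ABIN2, another partner of A20. It was counted 381, 363 and 391 times in WT, against 422, 407 and 368 times in KO. The groups overlapped after scaling. The log2 fold change of 0.19 had a 95% confidence interval from -0.06 to 0.43 (adjusted p = 0.161, edgeR), and the call was made in 0 of 17 alternative fits.

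Cyld (gene 74256, chromosome 8, positions 88697001 to 88751946) encodes a deubiquitinase that removes activating ubiquitin chains from signaling proteins and is known as a tumor suppressor of skin appendages. It was counted 1874, 1929 and 1918 times in WT, against 903, 978 and 1031 times in KO. Both groups were tight and far apart. Scaled levels averaged 88.8 ± 2.62 CPM for WT against 48.7 ± 2.83 CPM for KO (± SD, n = 3 each), with edgeR giving -0.87 on the log2 scale (SE 0.0846, adjusted p = 5.53e-05). All 17 alternative fits made the call, with log2 fold changes from -0.96 to -0.58.

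**Figure D3:**
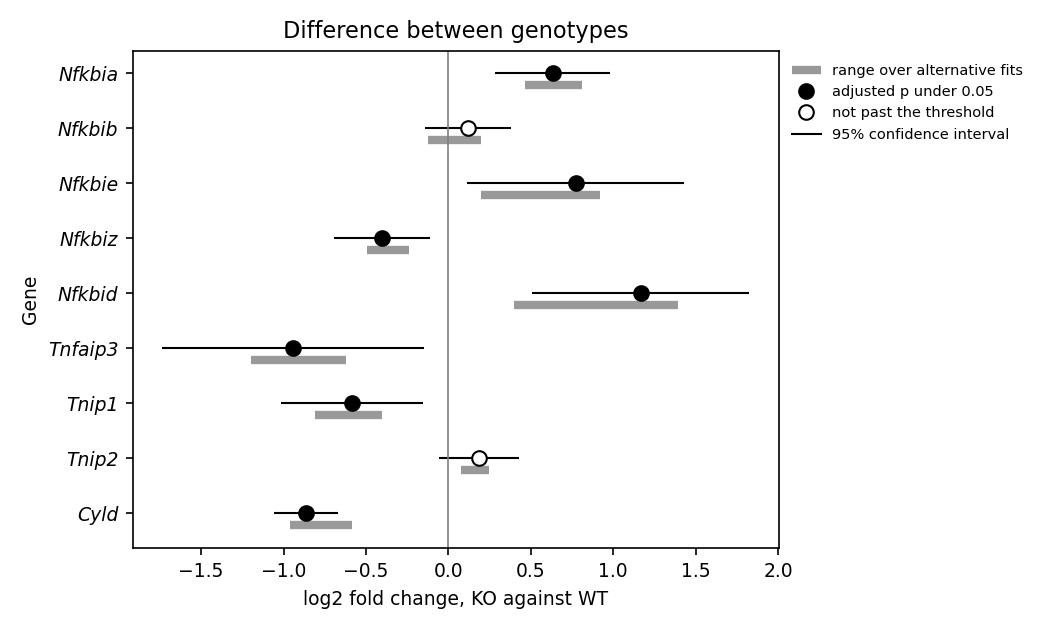
Log2 fold change of each inhibitor gene, KO against WT, from edgeR (points, filled where the adjusted p was under 0.05), with the 95% confidence interval (thin line) and the range over the alternative fits (grey bar under each point). The interval of Cyld (-1.06 to -0.67) is the narrowest and lies far from 0, and the grey bar of Nfkbib crosses 0.

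The spread within a group differed between the genes. On the log2 CPM scale the SD over the WT libraries was 0.61 for Tnfaip3, 0.36 for Nfkbid, 0.33 for Nfkbia and 0.25 for Nfkbiz, beside a median of 0.14 over all genes tested. Cyld was steadier, with 0.04. In KO the SD was 0.57 for Tnfaip3 and 0.41 for Tnip1, beside a median of 0.17. WT replicate 2 held the highest WT level of Tnfaip3 (18.0 CPM) and of Nfkbiz (212 CPM). The same library had 160 counts of S100a8 beside 0 and 1 in the other WT libraries, a gene of myeloid cells and inflamed epithelium that was picked after its values were seen. Other inflammatory genes were mixed. S100a9 was also highest in WT replicate 2, whereas Il1b was lowest there (8, 3 and 5 counts in WT replicates 1 to 3). Tnf (51, 120 and 151 counts) was highest in WT replicate 3, as was Nfkbia. A link between these genes and the 2 inhibitors was not tested. The values of Nfkbiz and Tnfaip3 without WT replicate 2 are given above.

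To compare levels between genes, the deposited FPKM values were used, which are scaled by gene length. In WT the order from high to low was Nfkbiz (49.9 ± 8.99 FPKM, mean ± SD, n = 3), Nfkbia (24.5 ± 4.97), Nfkbib (19.96 ± 1.15), Tnip1 (15.5 ± 0.805), Cyld (11.2 ± 0.155), Tnip2 (9.27 ± 0.337), Tnfaip3 (2.99 ± 1.18), Nfkbid (0.433 ± 0.0950) and Nfkbie (0.290 ± 0.0458). Nfkbia and Nfkbib overlapped in WT, and the other neighbours in this order did not. In KO Nfkbia (35.6 ± 0.702 FPKM, n = 3) and Nfkbiz (35.2 ± 1.61) overlapped at the top. They were followed by Nfkbib (20.2 ± 1.94), by Tnip2 (9.84 ± 0.775) and Tnip1 (9.56 ± 2.47), which overlapped, and by Cyld (5.75 ± 0.388). Tnfaip3 (1.46 ± 0.486) and Nfkbid (0.887 ± 0.101) also overlapped in KO, above Nfkbie (0.477 ± 0.0551). The KO order thus differed from the WT order in that Nfkbia had drawn level with Nfkbiz and Tnip1 and Cyld had come to lie level with or below Tnip2.

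The makeup of each pool followed from these values and was not tested, since it is a score over the chosen genes. FPKM carries no TMM scaling, so KO sums come out lower relative to WT than on the CPM scale. Over all genes the median log2 fold change was -0.09 in limma on log2(FPKM + 0.1), beside 0.01 in the main edgeR fit. The summed FPKM of the 3 classical IκB genes was 39.1, 44.3 and 50.9 in the WT libraries and 56.4, 54.96 and 57.6 in the KO libraries, without overlap. Nfkbia made up 49.6%, 56.1% and 57.6% of this sum in WT and 62.2%, 66.2% and 61.4% in KO. Every KO library thus lay above every WT library in both the sum and the share of Nfkbia. Over all 5 IκB genes the sums overlapped, at 95.1 ± 10.1 FPKM for WT against 92.4 ± 1.99 FPKM for KO (± SD, n = 3 each). Within that sum the share of Nfkbiz went from 52.3% ± 5.70 to 38.1% ± 1.22, while that of Nfkbia went from 25.8% ± 4.34 to 38.5% ± 1.06. Nfkbiz was the main IκB transcript in every WT library, and in KO it was level with Nfkbia. The 4 ubiquitin-editing genes summed to 37.7, 39.1 and 40.0 FPKM in WT and 29.4, 24.2 and 26.1 FPKM in KO, again without overlap. Tnip2 took 23.8% ± 1.05 of that sum in WT and 37.2% ± 4.42 in KO, and Cyld 28.8% ± 0.672 and 21.8% ± 3.32 (± SD, n = 3 each).

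**Figure D4:**
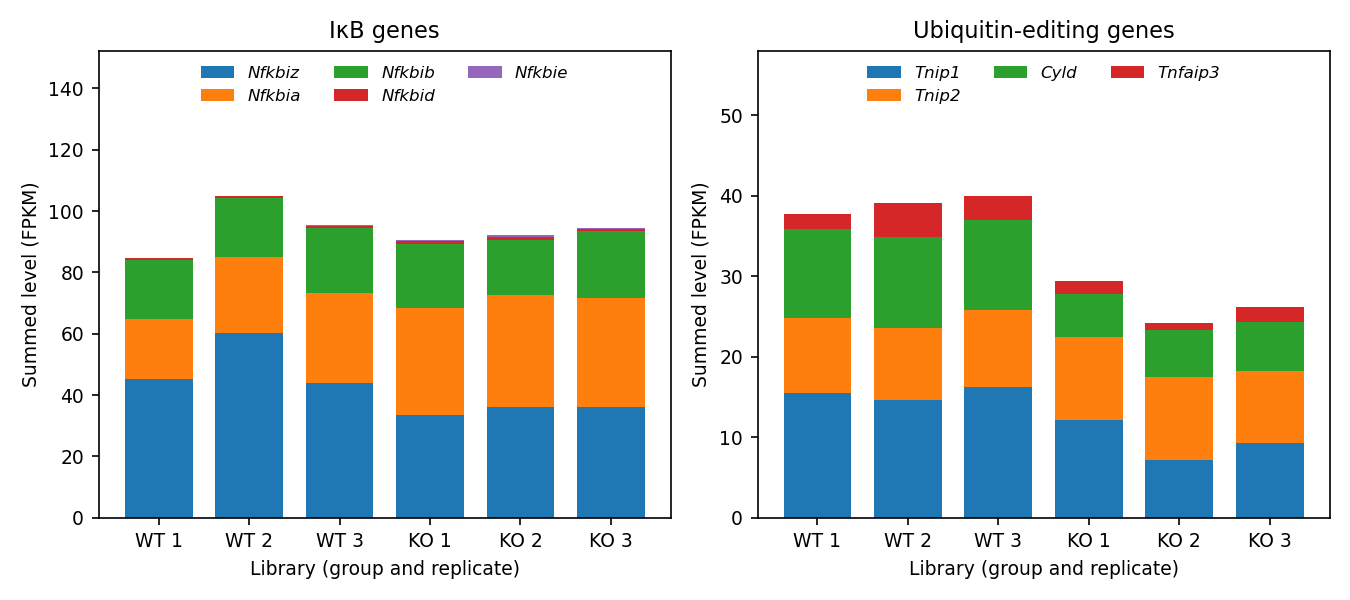
Summed level in FPKM of the 5 IκB genes (left) and the 4 ubiquitin-editing genes (right) in each library, stacked by gene. The IκB sums overlap between genotypes while their makeup shifts from Nfkbiz toward Nfkbia, and the ubiquitin-editing sums are lower in all 3 KO libraries.

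Relative to transcripts of the NF-κB subunits they bind, those of the classical IκB genes were more abundant in KO. Their summed FPKM per summed FPKM of the 5 subunit genes was 0.506, 0.550 and 0.631 in WT and 1.28, 1.44 and 1.30 in KO, where the divisor includes the deleted gene Rela. With Rela left out of the divisor the ratio was 0.945, 0.978 and 1.12 in WT and 1.498, 1.64 and 1.51 in KO. Among the subunit genes Nfkb2, whose product p100 also acts as an IκB, fell (log2 fold change -0.63, SE 0.145, adjusted p = 0.00539, edgeR), as did Rela. Relb, Rel and Nfkb1, the gene of the p105 precursor, did not pass, with log2 fold changes of -0.43, -0.19 and 0.04 and adjusted p of 0.129, 0.283 and 0.709 in edgeR. The sign of Nfkb1 turned in 4 of 17 alternative fits.

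The machinery that marks IκB for degradation was examined in a list of kinase and ligase subunits, of which 8 were tested, with 2 higher, 4 lower and a median log2 fold change of -0.23, beside 31.8% and 30.2% of all genes and a median of 0.01. Btrc, which encodes the β-TrCP subunit that recognizes phosphorylated IκB, fell from 677, 549 and 562 counts to 206, 201 and 195 counts. edgeR gave -1.46 on the log2 scale (SE 0.116, adjusted p = 1.88e-05), and the groups were far apart. Cul1, the scaffold of the same ligase, fell as well (-0.67, adjusted p = 3.07e-04, edgeR). Rbx1 (0.34, adjusted p = 0.0224) and Skp1a (0.25, adjusted p = 0.0398), its small subunits, rose in edgeR. Both lost the call with total counts only, with the length offset and without WT replicate 1 or 2 or KO replicate 2 or 3, and Skp1a also without WT replicate 3.

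Of the other IκB-like genes, Bcl3, a nuclear coactivator of p50 and p52, rose (log2 fold change 0.75, SE 0.164, adjusted p = 0.00406, edgeR) from 415, 520 and 529 to 899, 616 and 776 counts. Nfkbil1 had a log2 fold change of -0.46 with an adjusted p of 0.0464 in edgeR, a call that 8 of 17 alternatives did not make, among them those leaving out any library but KO replicate 1. Of 6 tested partners of A20 and CYLD and other deubiquitinases, 2 were higher and 2 lower, with a median log2 fold change of -0.11. Among all genes tested 31.8% were higher and 30.2% lower, with a median of 0.01. Rnf11, a partner in the A20 complex, rose (0.64, adjusted p = 0.00190, edgeR). Otud7b, the deubiquitinase Cezanne, fell (-0.74, adjusted p = 5.37e-04, edgeR). Otulin (0.35, adjusted p = 0.0435, edgeR) and Tax1bp1 (-0.27, adjusted p = 0.0267, edgeR) were not called in 10 and 4 of 17 alternatives. These included leaving out WT replicate 1 or 3 for either gene, WT replicate 2 for Tax1bp1, and KO replicate 1 or 2 for Otulin. Tnip3, the third ABIN gene, had between 3 and 9 counts in every library and was not tested.

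In the signaling complexes that A20 and CYLD act on, 14 genes were tested, of which 1 was higher and 6 lower. Their median log2 fold change was -0.16, beside 0.01 over all genes, of which 31.8% were higher and 30.2% lower. The largest falls were in Traf5, a TNF receptor adaptor (-1.42, SE 0.124, adjusted p = 3.20e-05, edgeR), and Rnf31, the catalytic subunit of the linear ubiquitin ligase (-0.96, SE 0.124, adjusted p = 2.53e-04, edgeR). Traf6, the ubiquitin ligase of the interleukin-1 and Toll-like receptor branch, rose (0.76, SE 0.114, adjusted p = 5.31e-04, edgeR). Of 10 further attenuators of NF-κB, Toll-like receptor, cytokine and MAP kinase signaling, 6 were higher and 1 lower, with a median of 0.70, beside 31.8% and 30.2% of all genes and a median of 0.01. Socs3, an inhibitor of cytokine receptors, was counted 10, 28 and 10 times in WT, against 548, 395 and 514 times in KO. Dusp1, a phosphatase of MAP kinases, rose 1.94 on the log2 scale (SE 0.358, adjusted p = 0.00169, edgeR). N4bp1 fell (-0.36, adjusted p = 0.0133, edgeR) and lost the call, with the same sign, with the length offset (-0.09, adjusted p = 0.470) and without WT replicate 3 (-0.31, adjusted p = 0.0572).

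RelA target genes outside the inhibitors were listed for comparison. Of 15 listed, 9 had enough counts, with 5 higher, 2 lower and a median log2 fold change of 0.75. For this list and the next, the shares over all genes were 31.8% higher and 30.2% lower, with a median of 0.01. The highest rises were in Il1b (8, 3 and 5 counts in WT, 52, 241 and 190 in KO) and Icam1 (9, 16 and 24 counts in WT, 233, 186 and 203 in KO), while Tnf and Bcl2l1 fell. Tnf lost its call without WT replicate 3, KO replicate 1 or KO replicate 2, and Bcl2l1 without WT replicate 3. Genes that IκBζ is known to help induce in epithelia were listed as well. Of 5 tested, 4 were higher in KO and 0 lower, with a median of 5.63, or 4.22 with the genes at or under the floor of 3 counts in every WT library set to their lower bound. There were 2 such genes, and they passed the filter only through their KO counts. Defb4, an antimicrobial β-defensin, was counted 0, 2 and 0 times in WT, against 7369, 5426 and 4422 times in KO. S100a9, part of the calprotectin heterodimer, was counted 17, 1263 and 28 times in WT, against 2312, 8001 and 4844 times in KO, and lost its call without WT replicate 1 or 3 or KO replicate 2 or 3. Lcn2 (1.23, adjusted p = 0.0696, edgeR) did not pass, and its groups overlapped.

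**Figure D5:**
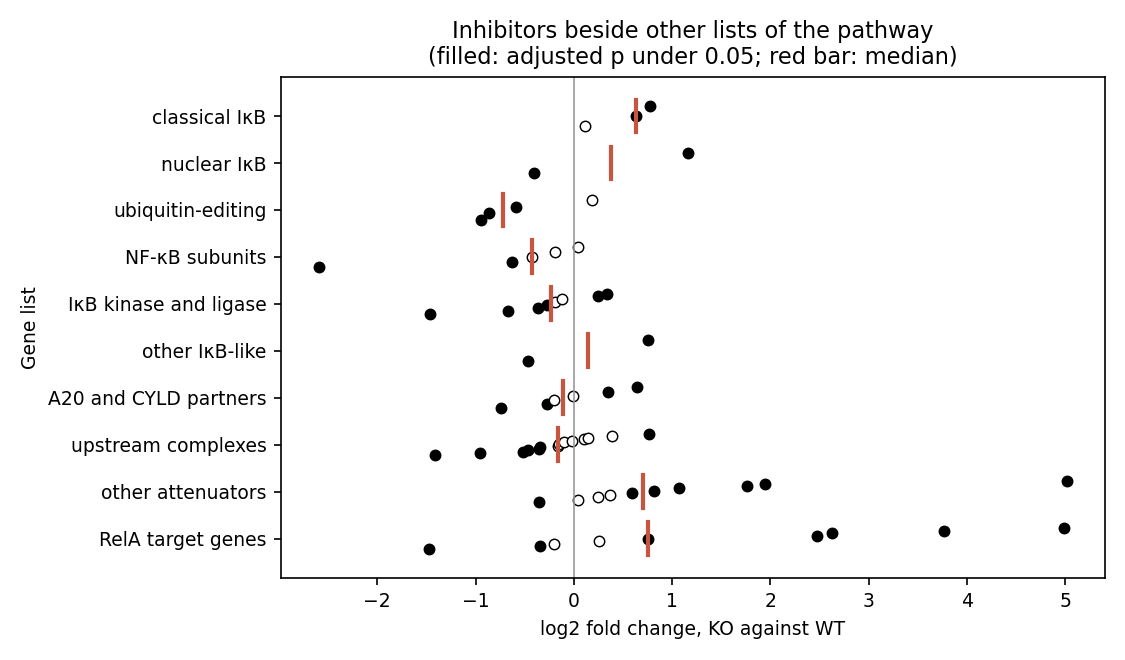
Log2 fold change, KO against WT, of every tested gene in the inhibitor groups and in 7 other lists named on the axis, filled where the adjusted p was under 0.05, with the median of each list as a red bar. The ubiquitin-editing genes have the lowest median of these lists (-0.73), and the other attenuators and the RelA target genes extend to rises of about 5.02 and 4.99.

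Markers of other cell types moved with genotype. Beside these and the corneal and epidermal markers above, 31.8% of all genes tested were higher and 30.2% lower. Of 8 tested immune markers 6 were higher and 1 lower, and Ptprc, the pan-leukocyte gene, was counted 13, 5 and 8 times in WT, against 105, 87 and 123 times in KO. The summed level of the 10 immune markers nevertheless lay between 271 and 347 CPM in WT and between 269 and 342 CPM in KO, while Itgam, the most abundant of them at 4999 to 6483 estimated counts in WT, fell. Lyz2, Adgre1, Cd207, Cd3e and Ms4a1 were at or under 3 counts in every WT library. The 3 of these that were tested passed the filter only through their KO counts. The stromal markers summed to between 14.9 and 18.2 CPM in WT and between 26.9 and 40.2 CPM in KO, with 5 of 6 tested genes higher and 1 lower. Of these 6 genes, 2 were at or under 3 counts in every WT library. They passed the filter only through their KO counts and could only come out higher. Endothelial markers, of which 1 of 2 tested was higher, summed to 1.24 to 1.85 CPM in WT and 2.21 to 3.29 CPM in KO. All 6 conjunctiva and goblet cell markers were higher, with sums of 1874 to 2900 CPM in WT and 52217 to 66934 CPM in KO. Again 2 of them were at or under 3 counts in every WT library and passed the filter only through their KO counts. The part of these cells in the levels of Nfkbia, Nfkbie, Nfkbid and the other inhibitors was not tested.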

How the data were processed

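Total RNA of corneal epithelium was sequenced by the authors as single-end reads (BGISEQ-500, after depletion of ribosomal RNA according to the study, while the labels name an Illumina kit), filtered with SOAPnuke, aligned with Bowtie2 2.2.5 and quantified with RSEM 1.2.12. The deposited table holds RSEM estimated counts, FPKM and TPM per library. The submitters' processing notes name mm9, but the coordinates in the table are those of GRCm38. RSEM shares ambiguous reads among genes, so between 30.4% and 32.3% of a library's values were not whole, and 2 of the 9 genes (Nfkbib and Cyld) had such values. The authors' own fold changes and DESeq2 p-values in the table were not used.

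Groups came from the titles, and the age was 6 months in all. After rounding to whole numbers, genotype was tested by the quasi-likelihood method of edgeR 4.0.16 (R 4.3.3, filterByExpr, TMM, no other covariate). Benjamini-Hochberg adjusted p-values were taken over 13305 genes, with 0.05 as the threshold. SE was the absolute log2 fold change over the square root of F. Libraries were from separate biological samples according to the study, and it is not stated whether a sample was a single mouse. The genes and lists were chosen with earlier results of these data known. Named were all 9 genes, Rela, lists of at most 5 genes in full, and from other lists at most the 2 highest and 2 lowest called log2 fold changes. Krt12, Pax6, Cd207, Cd3e, Ms4a1, Ptprc, Tnip3 and Lcn2 were named after their values were seen. The 17 alternatives were RLE factors, total counts, TMM without the 20 highest genes, no filter, a minimum mean count of 50, DESeq2 1.42.0, robust dispersion, limma 3.58.1 on log2(FPKM + 1) and log2(FPKM + 0.1), a loess offset for gene length, a replicate block and leaving out each library. The fit was tested on simulated data in which far fewer genes were changed than were called here. It called 69.0% of 100 genes changed 2-fold, 90.4% of 94 changed 4-fold, and 11 of 12955 unchanged genes. Promoters were those of RefSeq. The κB motif was a run of G, a purine, any base, A or T, pyrimidines and a run of C, 10 bases in all. Protein sequences, strand and exon usage were not analysed here, nor were Il36g, Cdh5 and Emcn. Python 3.11.15, pandas 2.3.3, numpy 2.4.6 and matplotlib 3.10.9 were used.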

Additional observations from a re-analysis of the deposited data

How the results depend on the processing

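Of 151 values for the 9 genes under the alternatives, 126 kept their direction and their side of the threshold, 24 kept the direction but lost the call, and Nfkbib changed sign once (-0.12, length offset). Nfkbia, Nfkbid and Cyld kept their calls in every alternative that tested them. The count of genes rising was 3, and 1 with a mean count of at least 50, where Nfkbie and Nfkbid were not tested. It was 2 in each fit that left out a library and with total counts only, no filter (Nfkbie adjusted p = 0.0703 and 0.0715, edgeR) and DESeq2 (0.142), since Nfkbie lost the call in each. The count of genes falling was 4, and 2 with the length offset, where Nfkbiz and Tnfaip3 lost the call, 3 with robust dispersion, where Tnfaip3 lost it, and between 2 and 3 when a library was left out. In the makeup of the pools, TMM-scaled counts, which are not per length, gave a share of Nfkbia of 65.9% in KO and shares of Cyld of 56.0% in WT and 48.1% in KO. Shares taken from TPM moved by less than the spread between libraries. Over all genes 8253 were called, and between 7100 and 8714 in the alternatives.

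The titles number the libraries within each genotype and do not say whether equal numbers mark paired samples. With the replicate number as a block, 8083 genes were called, with 2 of the 9 genes higher and 3 lower, since Nfkbie (adjusted p = 0.0803, edgeR) and Tnfaip3 lost the call. Deviations from the group means correlated at 0.03, -0.01 and 0.06 across genes between libraries of the same number. Only WT replicate 3 correlated best with the library of its own number. Depth limits Nfkbie and Nfkbid, with at most 42 counts per library.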

Other observations

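The genes whose levels over the 6 libraries were most like those of an inhibitor were sought among 10457 tested genes with a mean count of at least 100, by the mean absolute difference in log2 CPM after centring each gene on its mean. The nearest to Nfkbia were Rbbp8 (0.05) and Thbs1 (0.06), and the nearest to Cyld were Ccdc90b (0.03) and Gatd1 (0.03). For Tnfaip3 the nearest were B3gnt3 (0.12) and Isg15 (0.15), and for Nfkbiz Adprh (0.04) and Ezh2 (0.05). For Nfkbid, which had at most 42 counts per library, they were Ccnb2 (0.08) and Tacc3 (0.08). Nfkbib lay nearest to Rab5a (0.04) and Bnipl (0.04), and Nfkbie to Acer2 (0.07) and Cpxm2 (0.07). Tnip1 lay nearest to Tnrc18 (0.06) and Dhx34 (0.06), and Tnip2 to Hspb11 (0.03) and Fnbp4 (0.03). Among the inhibitors themselves the nearest pair was Nfkbib and Tnip2 (0.11), followed by Nfkbia and Nfkbie (0.18). The measure includes the difference between genotypes, which these genes share in size, and it is given as a description.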
